A study of Mus musculus with 6 samples.

Results

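The TAM receptors Mertk, Axl and Tyro3 and their ligands Gas6 and Pros1 were followed through the cells of the mouse peritoneum. These 5 genes, of 55538 features counted, were taken by name and not by rank of a measured value, though earlier results of these data were known. They were measured in B cells (at least 4 unique molecular identifiers, UMIs, of Cd79a and Cd79b together), in T/NK cells (at least 2 UMIs of Cd3d, Cd3e and Nkg7) and in macrophages (at least 2 UMIs of Csf1r, Adgre1 and Fcer1g, with at most 2 of the B cell genes and at most 1 of the T/NK genes). Macrophages were then divided by UMIs of Gata6, the transcription factor of large peritoneal macrophages (LPMs), and of Irf4, which marks small peritoneal macrophages (SPMs). These rules gave 3101 B cells, 667 T/NK cells and 2773 macrophages, of which 635 held Gata6 without Irf4, 255 Irf4 without Gata6, 22 both and 1861 neither.

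TAM receptors are tyrosine kinases of the cell surface. Gas6 and protein S, the product of Pros1, bridge them to phosphatidylserine that dying cells expose, and a macrophage that carries such a receptor can so take up the apoptotic cell, the process called efferocytosis. Mertk is best known for this uptake in resting tissue macrophages, Axl for its induction by interferon and other inflammatory signals, and signalling from both dampens cytokine responses. Protein S is also an anticoagulant cofactor of the blood, and both ligands need vitamin K for their maturation.

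The study compared adherent peritoneal cells of adult C57BL/6 mice of genotype MerTK +/+ (WT) and MerTK -/- (MerKD, an allele crossed back to C57BL/6J) in 6 groups named WT_Ctrl, WT_2hr, WT_6hr, MerKD_Ctrl, MerKD_2hr and MerKD_6hr. Control cells received fresh medium alone, and the others were cultured for 2 h or 6 h with Jurkat cells, a human T cell leukemia line that carried GFP and had been driven into apoptosis with UV light. Each group is 1 library, made from the pooled cells of 3 mice, so no group has a replicate. The lavage cells had been plated for 1 h and washed, which selects for cells that adhere.

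Libraries in the table carry only a number from 1 to 6, and no label ties a number to a genotype or time. Values are therefore given over the pool of 6 libraries or by library number, and nothing below compares genotypes or time points. For the same reason Mertk could not serve as a check of the genotype labels, and where the MerTK -/- allele is interrupted is not given in the sources used here, so a Mertk UMI does not show that a working transcript was made. The table held 7760 barcodes and 40172124 UMIs, and 7665 cells passed the study's limits. Library totals ran from 4234786 to 10287079 UMIs and the median cell of a library from 2783 to 5794 UMIs. In 28 cases the same barcode sequence occurred in more than 1 library (56 barcodes), and a doublet caller marked 68 cells, 0.876% of all. Although every sample is labelled as peritoneal macrophages, B cells were the largest class. Their list of 6 B cell markers summed to 2869 CPM (counts per 1000000 UMIs) against 13.0 CPM in macrophages, while 7 macrophage markers summed to 20055 CPM in macrophages, 377 CPM in B cells and 1511 CPM in T/NK cells. Cd79a, Cd79b, Csf1r, Adgre1 and Fcer1g, which define the classes, are themselves in these lists, so the rules set part of this contrast. Markers of mesothelial cells and fibroblasts, which could also reach a lavage, were nearly absent, with 1 of 6 genes detected in macrophages at a summed 0.0726 CPM.

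The genes lie on 4 chromosomes of the GRCm38 (mm10) assembly in the GENCODE vM21 annotation. Mertk spans chr2:128698956-128802894 on the plus strand, Tyro3 chr2:119797733-119818104 on the plus strand, Axl chr7:25757273-25788705 on the minus strand, Gas6 chr8:13465374-13494490 on the minus strand and Pros1 chr16:62854307-62929346 on the plus strand. Exons of Gas6 overlap those of Tmem255b on the opposite strand, and the strand setting of the counting is not given in the sources used here, so Gas6 counts are the least certain of the 5.

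Promoters of Mertk, Axl and Pros1, the 3 members whose levels the results turn on, are shown. Axl and Pros1 differed between macrophages with Gata6 and with Irf4, factors whose binding motifs can be looked for. The Mertk difference was not clear of counting error in every alternative. Each run is the 250 bases before the RefSeq start on GRCm38.p6, read 5′ to 3′ along the gene's own strand, at chr2:128698665-128698914 (plus strand), chr7:25788734-25788983 (minus strand) and chr16:62854057-62854306 (plus strand). Capitals mark a GATAA match.
Mertk: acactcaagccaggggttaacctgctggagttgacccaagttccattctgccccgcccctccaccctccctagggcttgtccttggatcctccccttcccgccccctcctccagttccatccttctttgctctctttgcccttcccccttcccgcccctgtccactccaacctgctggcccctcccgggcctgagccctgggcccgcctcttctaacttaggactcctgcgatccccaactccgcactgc
Axl: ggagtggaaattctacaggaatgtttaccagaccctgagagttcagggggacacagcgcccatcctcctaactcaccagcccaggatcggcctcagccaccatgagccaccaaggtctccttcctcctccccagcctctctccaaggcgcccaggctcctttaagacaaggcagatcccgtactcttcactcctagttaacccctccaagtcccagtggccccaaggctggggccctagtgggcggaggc
Pros1: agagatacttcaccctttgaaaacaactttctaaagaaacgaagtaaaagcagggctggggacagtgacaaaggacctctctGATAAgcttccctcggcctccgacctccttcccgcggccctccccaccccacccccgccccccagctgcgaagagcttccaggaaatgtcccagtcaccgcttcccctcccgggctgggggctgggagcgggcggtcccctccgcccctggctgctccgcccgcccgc
GATAA, the core that GATA factors bind, was found once, in Pros1, 168 to 164 bases before the start, and not in the windows of Mertk, Axl, Gas6 or Tyro3 on either strand. Of 32851 promoters of the same length, 22.6% held it, so a match in 1 of 5 is near the general share. Neither the ETS-IRF composite GGAANNGAAA (2.30% of promoters) nor the interferon response element GAAANNGAAA (2.98%) was found in any of the 5. GC content was 63.6% for Mertk, 60% for Axl, 64.4% for Pros1, 54.8% for Gas6 and 73.2% for Tyro3, all above the median promoter at 52.4%. A match is a string of letters and says nothing of binding, and its absence says only that these letters are not in this window.

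Mertk, Axl and Pros1 were macrophage genes in these cells, whereas Tyro3 and Gas6 were at the edge of detection everywhere. Macrophages held 80.4% of all Mertk UMIs (332 of 413), 82.4% of Axl UMIs (413 of 501) and 89.9% of Pros1 UMIs (781 of 869), although they gave 13778746 of the pooled UMIs against 20105833 for B cells. In macrophages Mertk reached 24.1 CPM (95% Poisson interval 21.6–26.8), Axl 30.0 CPM (27.2–33.0) and Pros1 56.7 CPM (52.8–60.8). Since the libraries were read from the 5′ end with 1 UMI per molecule, these levels are not scaled to gene length. Intervals here and throughout cover counting error only.

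**Figure D1:**
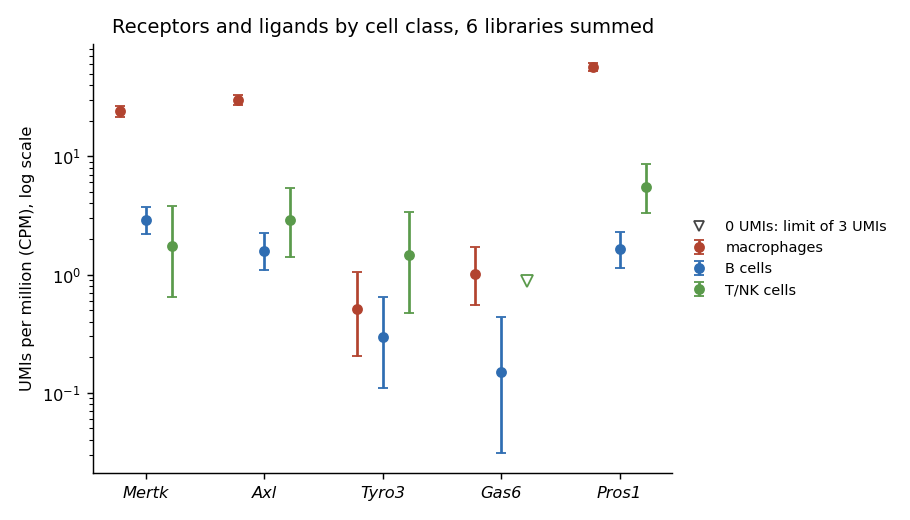
CPM (log axis) of the 5 genes in macrophages, B cells and T/NK cells of the 6 summed libraries, with exact 95% Poisson intervals, and an open triangle at the limit that 0 UMIs allow. Mertk, Axl and Pros1 sit at 24.1 to 56.7 CPM in macrophages and at no more than 5.53 CPM in the lymphocytes, while Tyro3 and Gas6 stay under 1.5 CPM in every class.

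Among the receptors, Mertk was counted at 21.6, 33.9, 17.4, 21.2, 28.5 and 28.3 CPM in the macrophages of libraries 1 to 6. B cells followed with 2.88 CPM (2.19–3.73) over the pool, and T/NK cells with 1.75 CPM (0.641–3.80). Each library's macrophages lay above its B cells. T/NK cells lay lower in libraries 1 to 3 and were at 0 in libraries 4 to 6, where the 24 T/NK cells of library 6 allow up to 31.5 CPM, more than its macrophages held. Over the pool the log2 ratio of macrophages to B cells was 3.06 (2.66–3.49), an 8.35-fold difference, with 2.19 to 5.98 in the single libraries. Against T/NK cells it was 3.79 (2.65–5.24), and 4.53 without library 1. The order of the lymphocytes was not resolved, since the log2 ratio of T/NK cells to B cells was -0.72 with an interval from -2.23 to 0.49.

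Axl, the receptor known for inflammatory induction, was counted at 21.6, 26.7, 64.4, 18.3, 20.8 and 59.7 CPM in the macrophages of libraries 1 to 6. Libraries 3 and 6 stood well above the other 4, whose intervals reached no higher than 35.4 CPM, where those of libraries 3 and 6 began at 51.7 and 48.2 CPM. Over the pool T/NK cells held 2.91 CPM (1.40–5.35) and B cells 1.59 CPM (1.09–2.25), and these did not differ beyond counting error (log2 ratio 0.87, -0.32 to 1.93). Macrophages exceeded B cells 18.8-fold (log2 ratio 4.24, 3.72–4.80) and T/NK cells 10.3-fold (log2 ratio 3.36, 2.47–4.43), in each case in 6 of 6 libraries. The ratio to T/NK cells was 4.53 on the log2 scale without library 1, which held 6 of their 10 Axl UMIs. Left out in turn, libraries 3 and 6 lowered the macrophage level to 26.1 and 26.2 CPM.

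Tyro3, the third receptor, gave 7 UMIs in macrophages, 6 in B cells and 5 in T/NK cells. Its levels were 0.508 CPM (0.204–1.05), 0.298 CPM (0.110–0.650) and 1.46 CPM (0.473–3.40). The log2 ratio of T/NK cells to B cells was 2.29 (0.24–4.26), but T/NK cells were higher in 3 libraries only, B cells in 2, and 2 of the 5 T/NK UMIs were in cells that also met the B cell rule. Macrophages could not be told from B cells (0.77, -1.03 to 2.62) or from T/NK cells (-1.52, -3.39 to 0.48).

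Pros1, which encodes protein S, was the most even of the 3 across libraries. Macrophages of libraries 1 to 6 held 58.2, 57.3, 49.9, 58.6, 48.5 and 60.4 CPM, with overlapping intervals. T/NK cells held 5.53 CPM (3.33–8.64) and B cells 1.64 CPM (1.13–2.31), a log2 ratio of 1.75 (0.86–2.61), with T/NK cells higher in 4 of 6 libraries. The T/NK level turned on which cells were counted, at 9.35 CPM without the 153 that also met the B cell rule and 2.39 CPM in those with no UMI of the macrophage rule genes. Macrophages exceeded B cells 34.5-fold (log2 ratio 5.11, 4.61–5.66), with 4.35 to 6.33 in the single libraries, and T/NK cells 10.2-fold (log2 ratio 3.36, 2.70–4.10).

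Gas6, the ligand that binds all 3 receptors, was close to absent. Its 14 UMIs in macrophages made 1.02 CPM (0.555–1.70), spread over 5 of 6 libraries with at most 2.57 CPM in any. B cells had 3 UMIs (0.149 CPM, 0.0308–0.436) and T/NK cells 0, which allows up to 0.873 CPM. The log2 ratio of macrophages to B cells was 2.77 (0.93–5.21), or 3.50 without library 1, and macrophages were at least 1.16-fold higher than T/NK cells when 3 UMIs are set against the 0.

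Of all 9432 genes that averaged 5 CPM or more over macrophages and B cells, 19.4% were at least 2-fold higher in macrophages and 23.6% at least 2-fold lower. Against T/NK cells the shares were 18.6% higher and 26.2% lower of 9663 genes. Mertk, Axl and Pros1 were among the higher genes in both, but they passed the filter only through their level in macrophages, so their count is no result of its own, and Tyro3 and Gas6 fell below the filter.

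**Figure D2:**
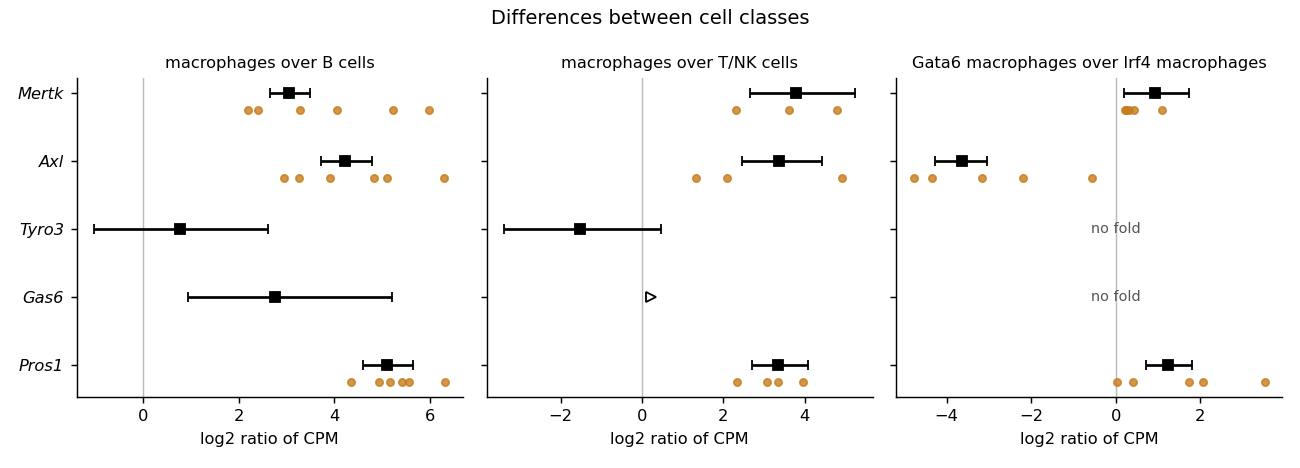
Log2 ratio of CPM for the 5 genes in 3 comparisons. Black squares are the 6 summed libraries with exact 95% intervals, orange points the single libraries with UMIs on both sides (drawn for Mertk, Axl and Pros1), and an open triangle a lower bound. Mertk, Axl and Pros1 lie above 0 against both lymphocyte classes, and Axl lies below 0 in Gata6 over Irf4 macrophages, at -3.64, where no fold is drawn for Tyro3 and Gas6.

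Shares of cells with a UMI also put macrophages first for Mertk, Axl and Pros1. At least 1 Mertk UMI was seen in 10.3% of macrophages (285 of 2773, exact binomial interval 9.17–11.5%), 1.74% of B cells (1.31–2.27%) and 0.900% of T/NK cells (0.331–1.95%), with median depths of 4426, 5561 and 3206 UMIs per cell. Axl was seen in 9.45% of macrophages (8.38–10.6%), 0.774% of B cells and 1.05% of T/NK cells. The T/NK shares rested on library 1, without which they were 0.558% for Mertk and 0.372% for Axl. For Pros1 the shares were 22.1% (20.6–23.7%), 0.903% and 2.55%. Thinned to 1500 UMIs per cell, which left out 83 macrophages, 38 B cells and 16 T/NK cells, the macrophage shares fell to 3.42%, 4.42% and 8.51% for Mertk, Axl and Pros1. The B cell shares then were 0.326%, 0.196% and 0.163%. At this depth Axl was seen in more macrophages than Mertk, though the unthinned shares had the opposite order, and the intervals of both genes overlapped each time. Tyro3 was seen in 0.252% of macrophages and 0.750% of T/NK cells, or 0.0372% and 0.461% after thinning. Gas6 was seen in 0.469% of macrophages, or 0.149% after thinning.

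Axl UMIs were the most concentrated. Of the 262 macrophages with Axl, 67.9% had a single UMI and 35 cells had 3 or more, up to 9. Those 35 cells held 33.2% of all macrophage Axl UMIs, against 6.93% for the 7 such cells of Mertk and 10.9% for the 26 of Pros1. Axl was also the member that varied most with the strength of the macrophage rule. In cells with a rule sum of 2 or 3 it was at 52.1 CPM (41.3–64.9), at sums of 4 to 7 at 42.3 CPM (35.6–49.8) and at 8 or more at 21.6 CPM (18.7–24.9). Over the same bins Mertk was at 26.4, 23.1 and 24.1 CPM, with overlapping intervals, and Pros1 at 46.2, 52.2 and 60.2 CPM.

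Much of the lymphocyte signal came from few cells. Of 3101 B cells, 104 (3.35%) also had at least 2 UMIs of the macrophage rule genes, and these held 17 of the 32 Axl UMIs of all B cells, 19 of the 33 Pros1 UMIs and 13 of the 58 Mertk UMIs. Among T/NK cells 50 of 667 (7.50%) did so, with 9 of 10 Axl UMIs, 12 of 19 Pros1 UMIs and 3 of 6 Mertk UMIs. Median depth in these cells was 8484 and 9122 UMIs, against 5425 and 3161 in B and T/NK cells with none of the rule genes. Without such cells the log2 ratio of macrophages to B cells was 5.26 for Axl, 6.28 for Pros1 and 3.36 for Mertk. That of macrophages to T/NK cells was 6.50, 4.61 and 4.60. The cells left out were picked by macrophage genes, and from the lymphocytes only, so a rise for a macrophage gene is partly built in. The doublet caller marked 36 of the 104 B cells (34.6%) and 4 of the 50 T/NK cells (8%), against 3 of 2863 and 0 of 602 lymphocytes with none of the rule genes.

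Over the pool, Mertk behaved differently in B cells. In the 2863 B cells with no UMI of the macrophage rule, 45 Mertk UMIs remained (2.49 CPM, 1.81–3.33), beside 13 of Pros1 (0.718 CPM, 0.382–1.23) and 15 of Axl (0.829 CPM, 0.464–1.37). Mertk thus made up 77.6% (64.7–87.5%) of the pooled sum of Mertk and Pros1 in these B cells and 29.8% (27.2–32.6%) in macrophages, a pooled mixture that differed beyond counting error. By library number the 45 UMIs fell as 21, 10, 13, 1, 0 and 0, or 5.12 CPM (3.17–7.82), 2.54 CPM (1.22–4.67), 3.37 CPM (1.80–5.77), 0.349 CPM (0.00884–1.95) and 2 libraries at 0, where 3 UMIs would be 1.45 and 2.35 CPM. The intervals of libraries 1 and 4 did not overlap. Pros1 UMIs in the same cells were 0, 3, 4, 3, 2 and 1, so Mertk exceeded Pros1 in libraries 1 to 3 only, and the pooled mixture does not describe libraries 4 to 6. Macrophage Mertk was near 0 in no library, with 17.4 to 33.9 CPM across the 6.

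Within macrophages the members parted by Gata6 and Irf4. Axl was 12.5-fold lower in Gata6 macrophages than in Irf4 macrophages, whereas Pros1 was 2.36-fold and Mertk 1.91-fold higher. The Mertk difference was not clear of counting error in every alternative. Gata6 macrophages carried the other LPM markers and Irf4 macrophages the other SPM markers as well: the 7 LPM genes summed to 1883 CPM against 715 CPM, and the 7 SPM genes to 658 CPM against 8385 CPM, though Gata6 and Irf4 are themselves in these lists. Of 8825 genes that averaged 5 CPM or more in this comparison, 8.6% were at least 2-fold higher in Gata6 macrophages and 12% at least 2-fold lower. Axl and Pros1 passed these folds and Mertk did not.

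Axl in Irf4 macrophages was 82.9, 49.0, 139, 22.2, 46.7 and 118 CPM in libraries 1 to 6. In Gata6 macrophages of the same libraries it was 4.05, 1.79, 15.5, 15.0, 10.3 and 0 CPM. The Irf4 macrophages were higher in 6 of 6 libraries, and the 2 sets of values did not overlap. The margin was narrowest in library 4, with 14 UMIs in Gata6 and 4 in Irf4 macrophages and overlapping intervals (8.20–25.2 and 6.04–56.8 CPM). In the libraries with UMIs on both sides the log2 ratio ran from -4.78 to -0.56, the latter in library 4. Summed, 114 UMIs made 95.1 CPM (78.4–114) in Irf4 macrophages and 29 UMIs made 7.62 CPM (5.10–10.9) in Gata6 macrophages, a log2 ratio of -3.64 (-4.28 to -3.04). Without library 4 the log2 ratio was -4.37. Macrophages with neither gene lay between, at 31.2 CPM (27.6–35.2), below Irf4 macrophages in 6 of 6 libraries and above Gata6 macrophages in 6 of 6. At least 1 Axl UMI was seen in 25.5% of Irf4 macrophages (20.3–31.3%) and 3.78% of Gata6 macrophages (2.44–5.57%), or 11.7% and 1.58% at 1500 UMIs per cell.

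Other markers moved with this difference. B cell markers summed to 60.9 CPM in Irf4 macrophages (31.1 to 160 CPM by library, 6 of 6 genes detected) and to 6.57 CPM in Gata6 macrophages (0 to 19.7 CPM). In B cells Irf4 was at 272 CPM and Axl at 1.59 CPM. Irf4 in B cells was at 716 CPM in library 6, which gave 113 of the 255 Irf4 macrophages. Dendritic cell (DC) markers summed to 28.4 CPM (16.6 to 49.0 CPM, 3 of 6 genes detected) against 8.14 CPM (3.88 to 10.9 CPM, 3 of 6), with Xcr1, Clec9a and Itgae at 0 in Irf4 macrophages and Flt3, Xcr1 and Itgae at 0 in Gata6 macrophages. T cell markers summed to 18.3 CPM against 3.68 CPM and platelet markers to 18.3 CPM against 2.36 CPM, while neutrophil markers were at 10.0 CPM against 28.4 CPM. The part of these cells in the Axl difference was not tested.

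Pros1 ran the other way. Gata6 macrophages of libraries 1 to 6 held 64.1, 78.6, 66.0, 69.6, 41.1 and 54.7 CPM, and Irf4 macrophages 5.53, 0, 19.9, 16.6, 31.1 and 53.8 CPM. The Irf4 values came from 1, 0, 6, 3, 2 and 21 UMIs, and the 0 of library 2 allows up to 36.7 CPM. Gata6 macrophages were higher in 6 of 6 libraries, but the intervals overlapped in libraries 3, 5 and 6. In library 5 the intervals were 23.5–66.7 and 3.77–112 CPM. In library 6, which gave 113 of the 255 Irf4 macrophages, both levels were nearly equal. Over the pool Pros1 was at 64.9 CPM (57.1–73.5) and 27.5 CPM (18.9–38.6), a log2 ratio of 1.24 (0.71–1.81), and without library 6 the log2 ratio rose to 2.14. Macrophages with neither gene held 57.5 CPM (52.6–62.8), which could not be told from Gata6 macrophages (log2 ratio of Gata6 to neither 0.17, -0.05 to 0.40) but exceeded Irf4 macrophages in 6 of 6 libraries.

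Mertk differed least. Its levels in Gata6 macrophages were 26.3, 30.4, 7.76, 30.0, 43.6 and 32.8 CPM and in Irf4 macrophages 22.1, 24.5, 6.62, 22.2, 0 and 15.4 CPM. The Irf4 values came from 4, 2, 2, 4, 0 and 6 UMIs, and the 0 of library 5 allows up to 46.7 CPM. The groups overlapped across libraries, and within libraries 1 to 4 the log2 ratio was no more than 0.44. Over the pool 28.6 CPM (23.5–34.5) stood against 15.0 CPM (8.90–23.7), from 109 and 18 UMIs, with a log2 ratio of 0.93 (0.20–1.74). Without library 3, or with Gata6 and Irf4 called at 1500 UMIs per cell, the interval of the difference held 0 (0.76, -0.01 to 1.62, and 0.70, -0.36 to 1.89). With neither gene Mertk was at 23.8 CPM (20.6–27.3), and in the 22 macrophages with both it was at 0, which allows up to 19.5 CPM. At 1500 UMIs per cell Mertk was seen in 3.65% of Gata6 macrophages (2.32–5.42%) and 2.02% of Irf4 macrophages (0.660–4.66%).

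Tyro3 and Gas6 could not be divided. Tyro3 gave 4 UMIs in Gata6 macrophages and 0 in Irf4 macrophages, where 0 allows up to 2.50 CPM. Gas6 gave 3 and 2 UMIs, so no fold is given for it.

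**Figure D3:**
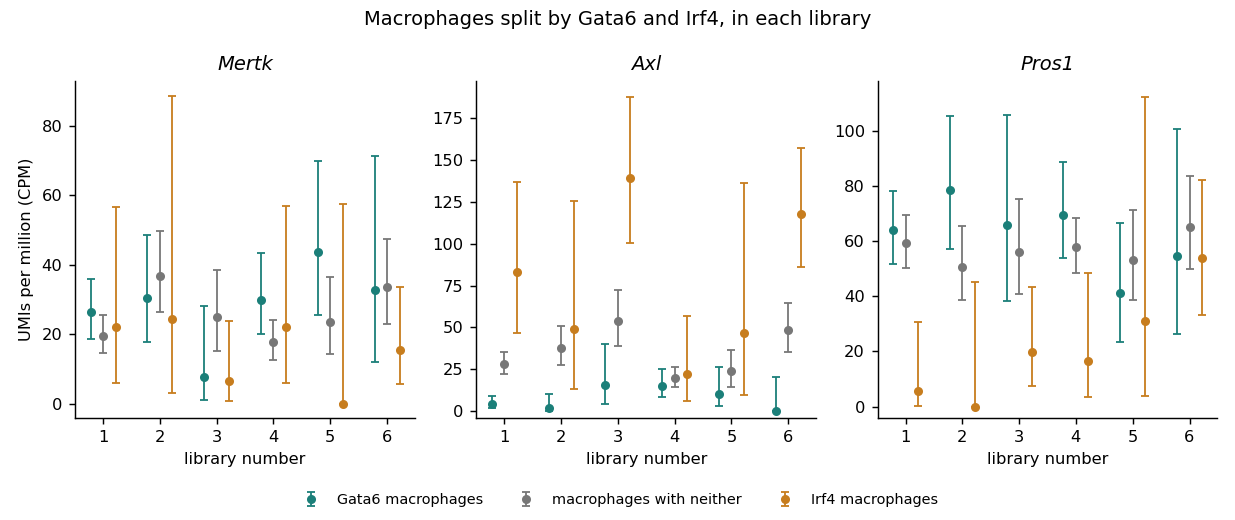
Mertk, Axl and Pros1 in CPM for macrophages with Gata6, with neither gene and with Irf4, in each library by its number, with exact 95% Poisson intervals. Axl is highest in Irf4 macrophages of every library, though by little in library 4, and reaches 139 CPM in library 3. Pros1 is lowest in Irf4 macrophages, though by little in library 6, and its Gata6 and Irf4 intervals overlap in libraries 3, 5 and 6. The Mertk intervals overlap in each library.

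The high Axl level of libraries 3 and 6 went with more Irf4 macrophages and with more Axl in Irf4 macrophages and in those with neither gene. Irf4 macrophages were 4.65, 4, 19.6, 5.07, 5.54 and 21.9% of macrophages in libraries 1 to 6. Within Irf4 macrophages libraries 3 and 6 ranked first (139 and 118 CPM), and also among macrophages with neither gene (53.7 and 48.4 CPM, against 19.4 to 37.6 CPM in the others). In Gata6 macrophages library 3 was also first (15.5 CPM), but library 6 had 0 Axl UMIs, which allows up to 16.4 CPM. Macrophages with neither gene held 65.1% of all macrophage Axl UMIs and Irf4 macrophages 27.6%. Fewer cells of a type and less RNA per cell were separated here only as far as detection of Gata6 and Irf4 allowed.

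Receptors and ligands were seldom seen in the same cell at this depth. At least 1 receptor was detected in 527 of 2773 macrophages (19.0%), at least 1 ligand in 621 (22.4%), both in 111 (4.003%, 3.30–4.80%) and none of the 5 genes in 1736 (62.6%). A ligand was seen in 21.1% (17.7–24.8%) of macrophages with a receptor and in 22.7% (21.0–24.5%) of those without. Mertk and Axl were found together in 25 cells, where the product of their shares gives 26.9. Mertk and Pros1 met in 76 cells (product 63.0) and Axl and Pros1 in 39 (product 57.9). Thinned to 1500 UMIs, the same pairs met in 5, 10 and 8 cells (products 4.07, 7.83 and 10.1). Cells of high depth hold more of every gene, and the median depth of the 111 cells was 6279 UMIs against 4061 UMIs in cells with none of the 5.

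Macrophages with only one of Mertk and Axl detected differed in their markers. In the 237 cells with Axl and no Mertk, the 7 SPM genes summed to 6861 CPM (3340 to 11420 CPM by library) and the 7 LPM genes to 850 CPM (600 to 1424 CPM). In the 260 cells with Mertk and no Axl the sums were 1313 CPM (415 to 4246 CPM) and 1544 CPM (1309 to 1936 CPM). Retnla, an alternative activation marker, was at 3835 CPM and 570 CPM, the chemokine receptor Ccr2 at 115 CPM and 12.7 CPM, and Irf4 at 206 CPM and 22.2 CPM. Gata6 was at 26.9 CPM and 95.4 CPM, and Timd4, a phosphatidylserine receptor of resident macrophages, at 12.2 CPM and 64.8 CPM. DC markers summed to 21.7 CPM and 12.1 CPM, with Flt3, Xcr1 and Itgae at 0 in both.

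**Figure D4:**
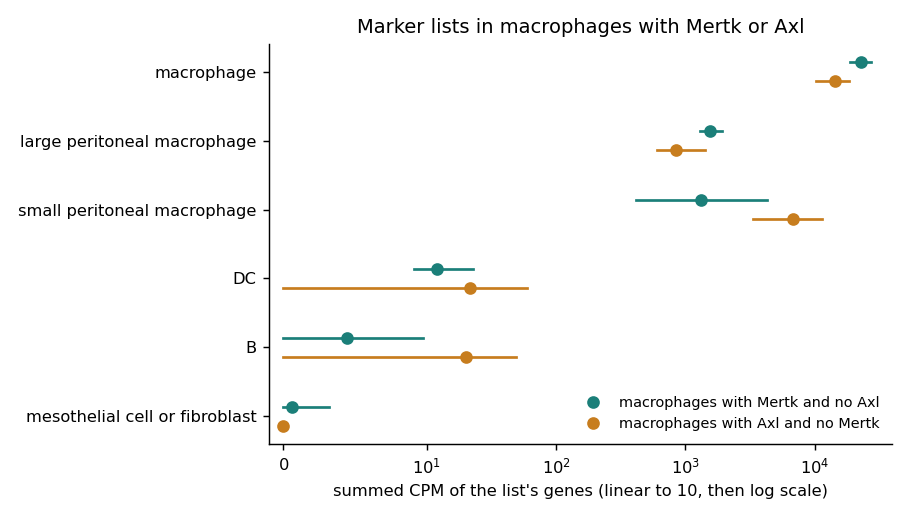
Summed CPM of 6 marker lists in the 260 macrophages with Mertk and no Axl and the 237 with Axl and no Mertk (axis linear to 10, then logarithmic). Points are the 6 summed libraries and lines run from the lowest to the highest library. SPM genes are at 6861 CPM in cells with Axl and 1313 CPM in cells with Mertk, LPM genes at 850 and 1544 CPM, and markers of mesothelial cells and fibroblasts are near 0 in both.

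A list of 38 genes around the pathway was read in the same comparisons. Of its 27 genes that averaged 5 CPM or more, 16 were at least 2-fold higher in macrophages than in B cells and 3 at least 2-fold lower, beside 19.4% and 23.6% of all genes, with a median log2 ratio of 1.36 beside -0.16 over all genes. Against T/NK cells 13 of 28 were higher and 4 lower, beside 18.6% and 26.2% of all genes, with a median of 0.86 beside -0.24. Some list genes passed the filter through a single class, as Rxra did through macrophages and Il15ra through T/NK cells. The list is described by these counts alone, and they are no result of their own.

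Genes that mature the ligands were present. Vkorc1, the reductase that recycles vitamin K, was at 56.3 CPM in macrophages and 19.3 CPM in B cells (log2 ratio 1.55, 1.37–1.72), whereas Ggcx, the carboxylase that uses it, was at 2.98 CPM and 2.44 CPM. The 3 measured genes of ectodomain shedding, which cuts Mertk and Axl from the surface, were at least 2-fold higher in macrophages than in B cells. Of all genes 19.4% were, and the count of 3 is no result of its own. Adam17 was at 93.1 CPM against 29.4 CPM, Adam10 at 98.7 CPM against 35.1 CPM, and Rhbdf2, a partner that brings Adam17 to the surface, at 89.0 CPM against 24.6 CPM. The inhibitor Timp3 had 2 UMIs in macrophages.

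Among transcriptional regulators, Rxra, the partner of the liver X receptors, was at 39.0 CPM in macrophages against 1.54 CPM in B cells (log2 ratio 4.66, 4.14–5.23), while Nr1h2, which encodes liver X receptor beta, was at 54.6 CPM against 68.5 CPM. Of the receptor signalling genes 5 of 10 measured were higher and 2 lower, where 19.4% and 23.6% of all genes were. Vav3 was higher (33.0 CPM against 4.77 CPM) and its relative Vav1 lower (36.2 CPM against 77.9 CPM). The interferon receptor subunits Ifnar1 and Ifnar2 were at 152 and 146 CPM in macrophages and at 52.6 and 37.7 CPM in B cells.

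Between Gata6 and Irf4 macrophages the list stood near the general share. Of 28 measured genes 2 were at least 2-fold higher in Gata6 macrophages and 3 at least 2-fold lower, beside 8.6% and 12% of all genes, with a median log2 ratio of 0.09 beside -0.10 over all genes. Lgals3, which encodes galectin-3, a further Mertk ligand, was at 178 CPM in Gata6 macrophages and 2850 CPM in Irf4 macrophages (log2 ratio -3.998, -4.12 to -3.88), lower in 6 of 6 libraries as Axl was. Klf2, a factor of quiescent macrophages and lymphocytes, was at 143 CPM against 14.2 CPM (log2 ratio 3.33, 2.64–4.12). The feedback inhibitors of cytokine signalling went opposite ways, with Socs3 at 290 CPM against 112 CPM and Socs1 at 11.6 CPM against 38.4 CPM. Klf4 was at 15.2 CPM against 33.4 CPM, in 4 of 6 libraries in that direction. The shedding genes Adam10, Adam17 and Rhbdf2 stayed within 2-fold, at log2 ratios of 0.15, -0.05 and 0.46.

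Levels of the members over 30 sums, made of B, T/NK, Gata6, Irf4 and neither cells in each library, were compared with 9546 genes as log2(CPM + 1). These sums share libraries and differ in depth, from 64237 to 4854829 UMIs, and the correlations are descriptions. Closest to Mertk were Ltc4s (r = 0.94), Cd300a (0.94), Ampd3 (0.93), Igsf6 (0.93) and Mpeg1 (0.92). Closest to Axl were A530064D06Rik (0.92), Aldh1a2 (0.92), Dcstamp (0.89), Gnat3 (0.89) and Vdr (0.88). Pros1 was nearest to Efnb2 (0.94), Plxdc2 (0.94), Ctbp2 (0.94), Trf (0.94) and Gm1673 (0.94). The 3 members shared none of these genes, which says little where each list is 5 of 9546 genes. Among themselves Mertk and Pros1 correlated at 0.69, Mertk and Axl at 0.51 and Axl and Pros1 at 0.47.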

How the data were processed

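Cells were counted with 10x Genomics 5′ chemistry. The authors aligned reads to the human and mouse genomes (hg38, mm10) with STAR through Cell Ranger, counted mouse genes and deposited raw UMI counts per gene and barcode, with no normalization. The submitters' processing notes list Cell Ranger 2.2 and Seurat 3.0, and the annotation counted on is not given in the sources used here. The last part of each barcode is a library number that no label names, so no value was assigned to a genotype or time.

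The study's limits on cells (500 genes or more, log genes over log UMIs of 0.8 or more, mitochondrial counts up to 10%) left out 95 barcodes. Classes followed the stated UMI rules, and 153 cells that met both the B and the T/NK rule stayed in both. UMIs were summed per class and divided by the class total (CPM), with exact 95% Poisson, binomial and conditional ratio intervals (scipy 1.17.1, Python 3.11.15). Where a class held 0 UMIs, up to 3 were allowed for. There are no p-values, since each condition has 1 library and cells are not replicates. Scrublet (scanpy 1.11.5, expected rate 0.01, each library separately) marked doublets, which were kept. Free RNA was not removed. Thinning to 1500 UMIs left out 313 cells. Ratios were checked on simulated counts.

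Members, lists and rules were chosen with earlier results of these data known. The genes named are the 5 members, genes of the pathway list, markers, and for each member with at least 100 macrophage UMIs the 5 genes of highest correlation. Markers named in cells with Mertk or Axl and list genes under 5 CPM were chosen after their values were seen. Alternatives were other cell filters, doublets or cells of 2 classes left out, another total, libraries weighted equally or left out in turn, stricter class rules, and, chosen after seeing the data, lymphocytes with macrophage genes left out.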

Additional observations from a re-analysis of the deposited data

Results flagged for a closer look

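The 1277 kept cells that met none of the class rules also held members, above the 3 UMIs that a count of 0 allows, and enter no comparison of classes above, only the totals over all kept cells. Mertk was at 4.66 CPM (2.84–7.19, 20 UMIs), Axl at 11.2 CPM (8.24–14.8, 48 UMIs) and Pros1 at 8.85 CPM (6.26–12.1, 38 UMIs). Of these cells 220 had a macrophage rule sum of 1, just below the limit. In them Axl was at 57.2 CPM (38.6–81.7), Mertk at 15.3 CPM (6.59–30.1) and Pros1 at 42.0 CPM. In the 550 macrophages just above the limit, with a sum of 2 or 3, the levels were 52.1, 26.4 and 46.2 CPM. Each group holds 1 library, so the spread within groups was not examined for single samples that lie apart.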

How the results depend on the processing

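The 12 log2 ratios were recomputed under 183 alternatives, none of which changed the sign of a ratio whose interval lay clear of 0, and 173 stayed within the interval given in the report. Removing lymphocytes with 2 or more UMIs of the macrophage genes, a choice made after seeing the data that favours higher ratios, moved the ratios to B cells to 5.26 (Axl) and 6.28 (Pros1) and those to T/NK cells to 6.50 (Axl) and 4.61 (Pros1). With a T/NK sum of at least 4 the Axl ratio to T/NK cells was 4.82, and without cells of 2 classes that of Pros1 was 2.60. With mitochondrial, ribosomal protein and immunoglobulin genes out of the total, which shrinks it most in B cells, the Mertk ratio to B cells was 2.62 and macrophage levels were 28.2 (Mertk), 35.1 (Axl) and 66.3 CPM (Pros1). Weighted equally by library, Axl was at 35.2 CPM in macrophages. Leaving out 1 library at a time gave 26.1 to 33.8 CPM for Axl in macrophages, 2.91 to 4.53 for its ratio to T/NK cells, -4.37 to -3.30 for its ratio of Gata6 to Irf4 macrophages, 1.06 to 2.14 for that of Pros1, and 19.9 to 23.7% for the share of macrophages with Pros1. For Mertk in Gata6 over Irf4 macrophages the interval held 0 with at least 2 UMIs of either gene (1.08, -0.12 to 2.50), with calls at 1500 UMIs (0.70) and without library 3 (0.76). Thinning to 1500 UMIs lowered the macrophage shares to 3.42, 4.42, 0.0372, 0.149 and 8.51% for Mertk, Axl, Tyro3, Gas6 and Pros1, as fewer UMIs must. No paired analysis was possible because each group of genotype and time has 1 library, so the groups share a single replicate number. Cell classes were compared within each library by direction and range, with no test. Depth limits Tyro3 and Gas6 most, with 7 and 14 UMIs in macrophages. Counts of mRNA say nothing of protein at the cell surface.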
